A study of Mus musculus with 21 samples.

Results

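The 31 genes described here encode the proteins with which a cell loads calcium into its endoplasmic reticulum, holds it there, lets it out and passes it to mitochondria. They were chosen by name and function, with the forms typical of skeletal muscle left out; the rule uses no measured value, but earlier results of these data were known when the list was made. All 31 were among the 24381 genes present in both deposited count tables, and all 31 passed the filter on low counts in every comparison below. By role, 3 genes code for pumps and their inhibitor, 5 for release channels, 2 for counter-ion channels, 6 for store-operated entry, 7 for calcium-binding and folding proteins of the lumen, 2 for membrane junctions, 2 for leak pathways and 4 for mitochondrial contact and uptake.

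The study sequenced RNA from mouse dorsal root ganglia, the clusters of sensory neuron cell bodies beside the spinal cord, in 21 libraries. Every mouse carried floxed Tmem45b, a gene for a multi-pass membrane protein. The mice called cKO here (Tmem45b-flox::Mrgprd-cre) also carried Mrgprd-cre, in which Mrgprd, the gene of a receptor on nonpeptidergic nociceptors, drives the recombinase, so the deletion is limited to cells in which Mrgprd is or was active. Whole ganglia were sequenced, and the other cells keep the gene. The mice called flox here (Tmem45b-flox) had no Cre. Untreated ganglia came in sets known by their column names: the LDRG set had 3 flox and 3 cKO libraries, and the con/ko set had 3 flox and 4 cKO libraries. The CFA set had 4 flox and 4 cKO libraries from the CFA model, in which an adjuvant causes lasting inflammation and pain hypersensitivity. The labels give no age, sex, dose, injection site or time, and no meaning for LDRG or for the letters F, M, C and L in the con/ko column names. Genotypes follow the sample titles, because the genotype field names the Cre line for all 21 samples. Nothing in the labels says that libraries of a group came from separate mice, so p-values measure only the spread between these libraries.

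Calcium pumps of the SERCA family keep the reticulum lumen far richer in calcium than the cytosol. Inositol trisphosphate receptors and ryanodine receptors open to release that calcium, and when the store runs low, STIM proteins in the reticulum membrane gate ORAI channels in the plasma membrane to refill it. In sensory neurons such stores shape the calcium signals that follow firing and receptor activation, and the chaperones of the lumen need calcium to fold new membrane proteins.

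Library totals ran from 53364400 to 72502300 counts (to 6 digits), and the smallest count of any member in any library was 40, for Pln. Tmem45b, the targeted gene, lay at 124 to 145 CPM in flox and 59.9 to 72.2 CPM in cKO LDRG libraries, and at 148 to 179 CPM in flox and 68.6 to 89.1 CPM in cKO con/ko libraries. In CFA libraries Tmem45b did not separate the labels, with 65.9 to 136 CPM under the flox label and 61.8 to 108 CPM under the cKO label. Libraries of the CFA set are therefore named by label, and genotype differences within that set are differences between labels. Mrgprd was present throughout, at 68.5 to 209 CPM, and none of the 10 sensory neuron markers was at 0 in a whole group. Xist, the RNA of the inactive X chromosome in females, lay at 283 to 459 CPM in all 8 CFA libraries and at no more than 0.330 CPM in all 6 LDRG libraries, and the con/ko set held both kinds. CFA and sex thus cannot be told apart between the CFA and LDRG sets. In these bulk samples, fewer cells of a type and less RNA per cell cannot be told apart either.

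Per kilobase of exon, the most abundant members were Vdac1, the voltage-dependent anion channel of the outer mitochondrial membrane, at 162 CPM per kilobase over all libraries, and the lumenal folding proteins Pdia3 at 135, Canx at 129 and Calr at 108 CPM per kilobase. The pump Atp2a2 (SERCA2) followed at 91.5 CPM per kilobase, against 1.89 CPM per kilobase for Atp2a3 (SERCA3). Among release channels Itpr3 stood highest at 10.2 CPM per kilobase. Ryr2 lay at 3.15, Itpr1 at 1.46, Ryr3 at 0.828 and Itpr2 at 0.472 CPM per kilobase, the last being the lowest level of any member. Of the ORAI channels, Orai2 at 8.46 and Orai3 at 7.80 CPM per kilobase were above Orai1 at 3.67 CPM per kilobase. Both junctophilins typical of neurons were well represented, Jph3 at 30.4 and Jph4 at 21.6 CPM per kilobase. The counter-ion channel Tmem38a, at 33.0 CPM per kilobase, was far above its relative Tmem38b at 2.72.

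**Figure D1:**
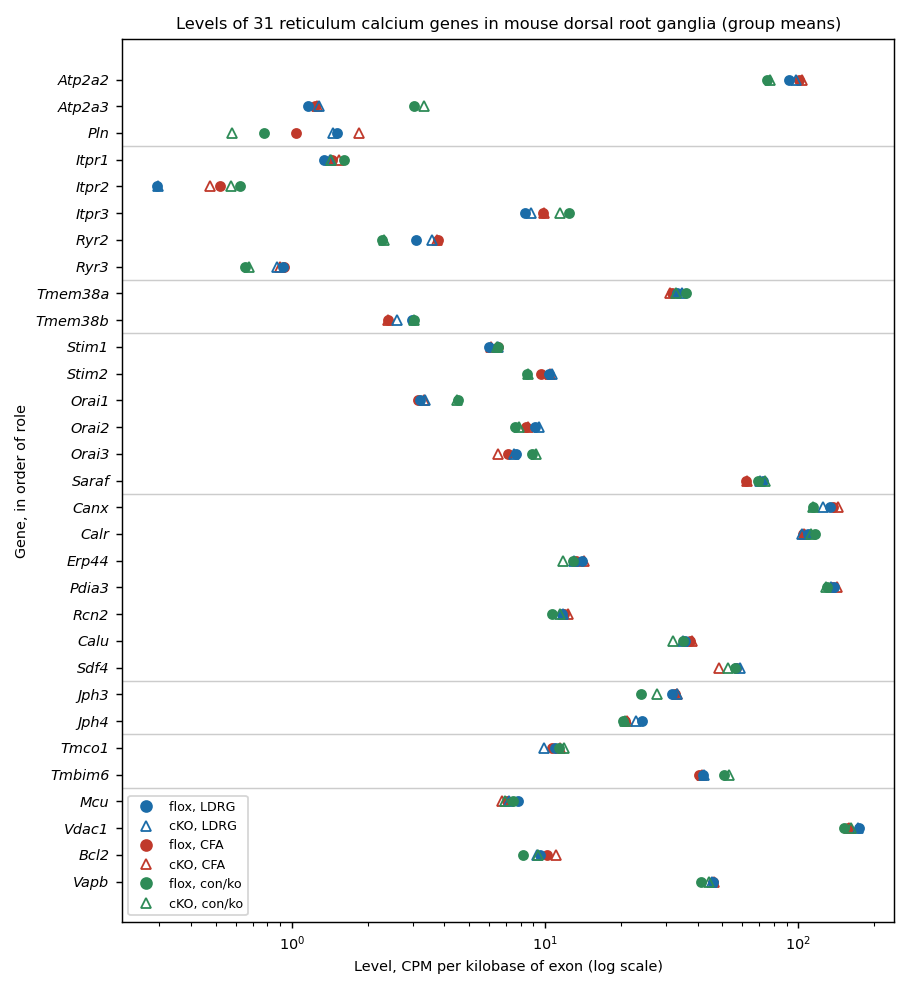
Mean level of each of the 31 genes in each of the 6 groups, in CPM per kilobase of exon on a log axis, with genes ordered by role and grey lines between roles. Levels span from Itpr2 at 0.472 to Vdac1 at 162 CPM per kilobase over all libraries, and group means of a gene mostly lie close together, with Atp2a3, Pln and Itpr2 spread the widest.

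Whether the deletion of Tmem45b moved these genes was asked within each set and over both untreated sets together. None of the 31 members was called in either direction in untreated ganglia, at an adjusted p under 0.05 (edgeR, quasi-likelihood F test, p-values adjusted by Benjamini and Hochberg over all genes), where 0.00599% of 16706 genes were called. None was called within the LDRG set (0.0187% of 16050 genes), the con/ko set (0.243% of 16481 genes) or the CFA set (0% of 16116 genes). At an unadjusted p under 0.05 there were 2 of 31 members beside 1125 of 16706 genes in untreated ganglia and 4 of 31 beside 732 of 16050 genes in the LDRG set. In the con/ko set it was 1 member beside 1088 of 16481 genes, and in the CFA set 0 members beside 799 of 16116 genes. DESeq2, run as an alternative, also called 0 members in these 4 comparisons.

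Intervals on the cKO minus flox difference were narrower in untreated ganglia as a whole than in the con/ko set alone. In untreated ganglia the 95% interval lay within a 1.25-fold change in either direction for 27 of 31 members, within 1.5-fold for 29 and within 2-fold for 31. In the CFA set these counts were 24, 30 and 30, in the LDRG set 25, 31 and 31, and in the con/ko set 20, 29 and 29. The median log2 difference of the members was -0.02 in untreated ganglia and 0.03 in the CFA set, beside medians over all genes that rounded to 0.00 and 0.01. The smallest adjusted p in untreated ganglia was 0.688, for the lumenal thiol protein Erp44, with a log2 difference of -0.12 (SE 0.04). Mcu, the pore of the mitochondrial calcium uniporter, had a log2 difference of -0.12 (SE 0.05, adjusted p = 0.714). The widest interval in untreated ganglia belonged to Atp2a3, at -0.58 to 0.84, and in the con/ko set alone Atp2a3 ran from -1.19 to 1.45.

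Pln, which encodes phospholamban, the small inhibitor of SERCA2, had the largest estimates in the con/ko and CFA sets. Pln measured 3.58, 3.66 and 5.20 CPM in flox and 3.95, 3.85 and 4.24 CPM in cKO LDRG libraries. Pln in con/ko ganglia measured 1.49, 2.53 and 2.38 CPM in flox and 2.41, 0.599, 2.10 and 1.31 CPM in cKO libraries. Under CFA, Pln measured 3.32, 5.27, 1.03 and 1.87 CPM with the flox label and 5.03, 5.89, 6.46 and 2.99 CPM with the cKO label. The genotype groups overlapped in every set. The log2 difference cKO minus flox was 0.83 in the CFA set, with a 95% interval of -0.16 to 1.83 and an adjusted p of 0.938, and -0.41 in the con/ko set, with an interval of -1.49 to 0.68. Pln exons overlap those of Cep85l on the opposite strand.

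**Figure D2:**
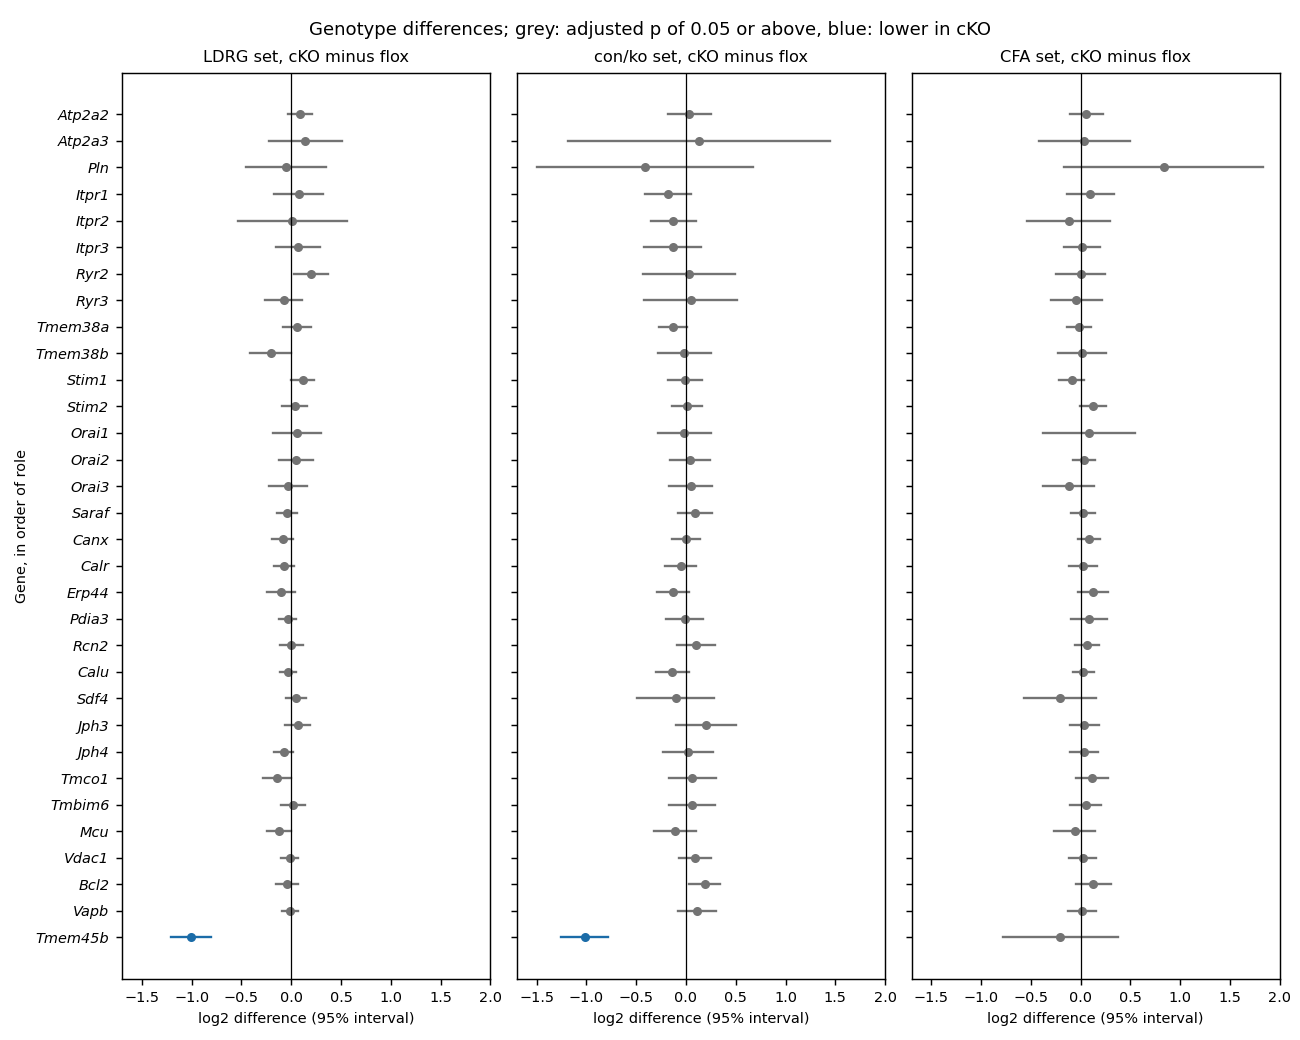
Log2 difference cKO minus flox with its 95% interval for each member, and for Tmem45b as the check, in the LDRG, con/ko and CFA sets. All member points are grey (adjusted p of 0.05 or above), and Tmem45b is called lower in the LDRG and con/ko sets, at -1.01 and -1.02, but not in the CFA set, at -0.21.

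The test of whether a genotype difference differed between the CFA and LDRG sets (interaction) called 0 of 31 members beside 0% of 16605 genes. At an unadjusted p under 0.05 it gave 4 of 31 members and 840 of the 16605 genes. DESeq2 called 0 members here too. The smallest adjusted p was 0.942, a value that Stim1, the main sensor of store depletion, shared with Canx and Tmco1 at least. Stim1 measured 59.5 to 65.0 CPM in flox and 66.5 to 68.8 CPM in cKO LDRG libraries, against 65.3 to 72.2 CPM in CFA libraries labelled flox and 58.4 to 65.7 CPM in those labelled cKO. Its interaction was -0.22 (SE 0.07, log2). The intervals here were wider, within 1.5-fold for 26 of 31 members.

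Between CFA and LDRG ganglia few members were called within either genotype, and more when the genotypes were averaged. In flox, 3 of 31 members were called, or 9.68%, beside 6.82% of 16605 genes. Itpr2 was higher (3.77% of all genes were), and Saraf and Jph4 were lower (3.05%). In cKO, 1 of 31 members was called, or 3.23%, beside 2.61% of all genes (1.7% higher and 0.909% lower), and that was Canx, which was higher. Averaged over both genotypes, a comparison added after the data were seen, 8 members were called, or 25.8%, beside 16.9% of all genes. Itpr2, Canx, Calu and Bcl2 were higher (9.51% of all genes were), and Saraf, Jph4, Vdac1 and Orai2 were lower (7.37%). The median log2 difference of the members was 0.01, beside a median over all genes that rounded to 0.00, and 2 members had all CFA libraries above all LDRG libraries while 3 had all below, beside 3.53% and 2.74% of all genes.

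These CFA counts depended on single libraries. The flox count of 3 fell to 0 without flox LDRG replicate 1 and to 1 without flox LDRG replicate 2 or without the CFA library labelled cKO replicate 3. The cKO count of 1 fell to 0 without any of 9 libraries: cKO LDRG replicates 1, 2 and 3, flox LDRG replicates 1 and 2, CFA cKO replicates 2, 3 and 4, and CFA flox replicate 2. It was 2 without CFA flox replicate 1. With sex, read from Xist, as a term in a fit of all 21 libraries, 3 of the 8 members of the averaged comparison stayed called, namely Itpr2, Saraf and Vdac1. The share of all genes called is not given for that fit or for those without 1 library. Xist was high in every CFA library and low in every LDRG library, so this sex term came from the con/ko libraries alone. There sex is partly mixed with the letters C and L. The term carries the con/ko sex difference over to the other sets and cannot tell CFA and sex apart in them. Other cell types moved with this comparison: 5 of 5 red cell markers, 4 of 4 neutrophil markers and 4 of 4 fibroblast markers were higher in CFA than LDRG libraries, and 4 of 10 sensory neuron markers were lower. Summed red cell markers lay at 33.7 to 53.8 CPM in LDRG and 207 to 620 CPM in CFA libraries, and summed neutrophil markers at 0.859 to 2.98 CPM and 24.3 to 78.0 CPM. The part of these cells in the member differences was not tested.

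The con/ko set stood apart from the other sets, in the members as in the transcriptome as a whole. Between con/ko and LDRG ganglia, both untreated, 18 of 31 members were called when averaged over genotype, 8 higher and 10 lower in con/ko. That is 58.1% of the members beside 47% of 16706 genes (25.9% higher and 21.1% lower). Between CFA and con/ko ganglia 21 of 31 members were called, 12 higher and 9 lower in CFA, or 67.7% beside 49.7% of 16792 genes (22.7% higher and 27% lower). Both comparisons cross tables, and the con/ko libraries enter both of them. In 6 members all con/ko libraries lay above all LDRG libraries and in 5 all lay below, beside 12.8% and 12.3% of all genes. In 4 members all CFA libraries lay above all con/ko libraries and in 4 all lay below, beside 10.1% and 9.47% of all genes. Leaving out any 1 library gave 16 to 21 members for con/ko against LDRG and 18 to 22 for CFA against con/ko. Xist-matched fits used only the con/ko libraries whose Xist matched the other set. For CFA against con/ko this gave 17 members (9 higher, 8 lower). Against LDRG the flox con/ko group had 1 library, assumed to vary like the other groups, so no count is given. The share of all genes called is not given for these fits or those without 1 library. Their counts are therefore not set against the transcriptome. The same comparisons were also made with only the con/ko libraries whose names hold the letter L (flox replicates 5 and 6 and cKO replicate 7, the lone cKO library again assumed to vary like the others). Calls that ended in either kind of fit are given with the members below. None of the members had a con/ko minus LDRG difference that differed between genotypes, a test added later that called 0 of 16928 genes.

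Cell type markers differed between these sets as well. In con/ko against LDRG libraries, 7 of 10 sensory neuron markers were lower, with a median log2 difference of -0.33, while 5 of 5 red cell, 4 of 4 platelet, 5 of 5 macrophage, 4 of 4 neutrophil and 4 of 4 fibroblast markers were higher. Summed sensory neuron markers lay at 21488 to 23470 CPM in LDRG, 14814 to 17965 CPM in con/ko and 17701 to 20573 CPM in CFA libraries. Summed red cell markers reached 1588 to 4317 CPM in con/ko libraries. Among these lists, no marker was at 0 in a whole con/ko group. How much of the member differences goes with these cells was not tested.

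**Figure D3:**
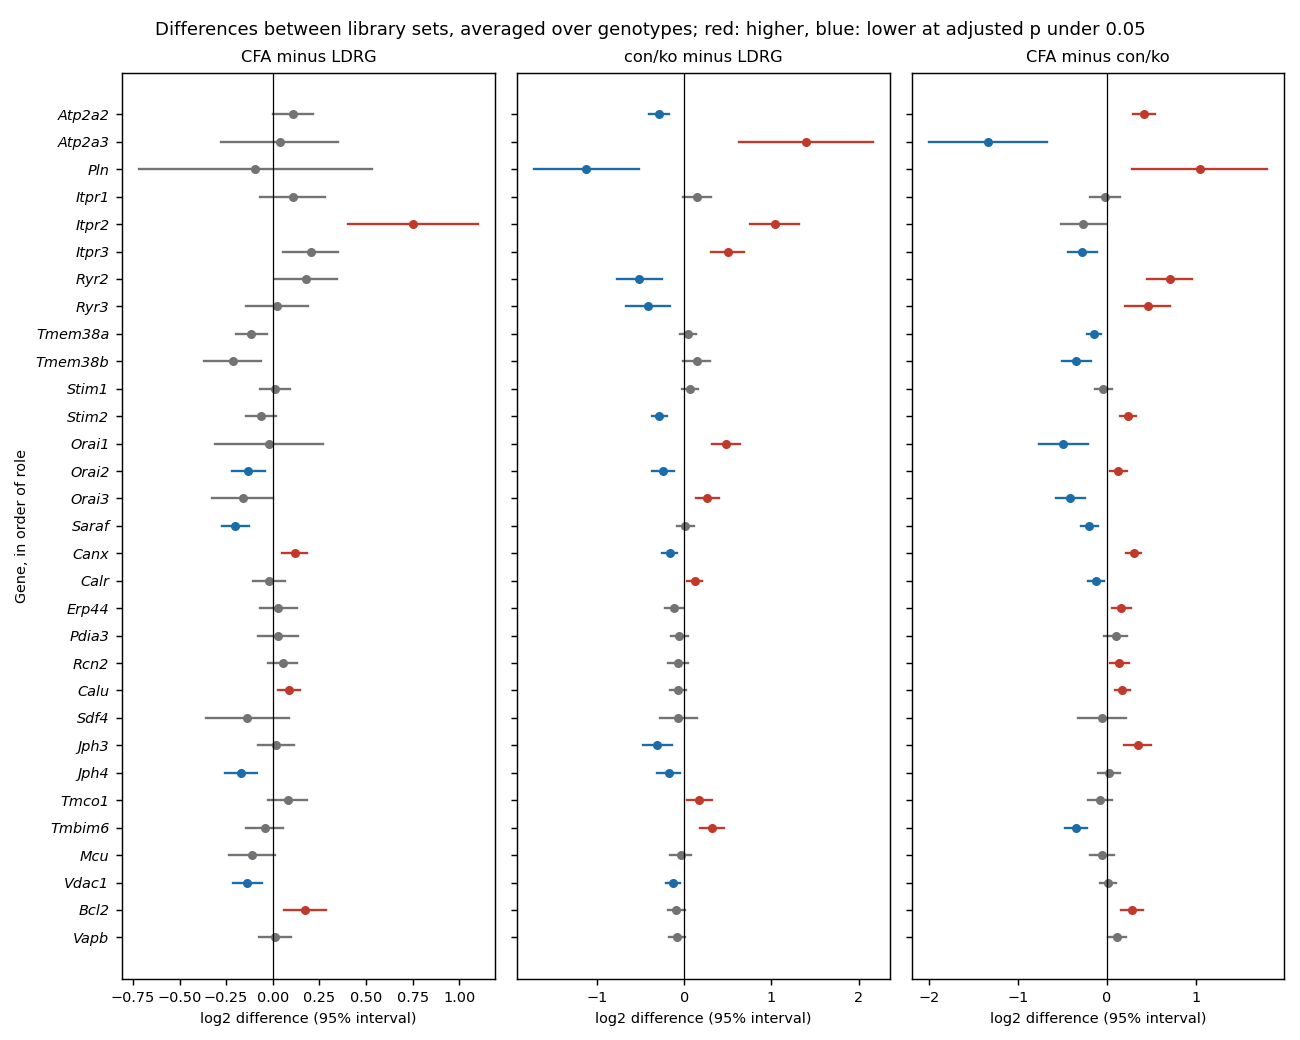
Log2 difference between library sets with its 95% interval for each member, averaged over genotypes, for CFA minus LDRG, con/ko minus LDRG and CFA minus con/ko, with a separate scale in each panel. Red points are higher and blue points lower at an adjusted p under 0.05; 8, 18 and 21 of the 31 members are coloured, and Atp2a3 and Pln have the largest differences of the con/ko set.

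Among the pumps, Atp2a2 encodes SERCA2, the form found in nearly all cells. Atp2a2 measured 581, 523 and 570 CPM in flox and 587, 583 and 612 CPM in cKO LDRG libraries. Atp2a2 in con/ko ganglia measured 433, 457 and 487 CPM in flox and 492, 412, 512 and 468 CPM in cKO libraries. Under CFA, Atp2a2 measured 632, 653, 544 and 614 CPM with the flox label and 592, 673, 596 and 663 CPM with the cKO label. All LDRG and CFA libraries lay above all con/ko libraries, and the genotypes overlapped in the con/ko and CFA sets. Atp2a2 was lower in con/ko than LDRG ganglia by a log2 difference of -0.29 (SE 0.05, adjusted p = 9.65e-04) and higher in CFA than con/ko ganglia by 0.42 (SE 0.06, adjusted p = 8.55e-05). Against LDRG the CFA difference was 0.11 (SE 0.05, adjusted p = 0.144).

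Atp2a3 encodes SERCA3, a pump known from platelets, other blood cells and epithelia. Atp2a3 measured 5.54, 5.43 and 7.38 CPM in flox and 7.75, 6.25 and 6.29 CPM in cKO LDRG libraries. Atp2a3 in con/ko ganglia measured 9.23, 13.4 and 25.3 CPM in flox and 11.6, 10.9, 9.58 and 38.0 CPM in cKO libraries. Under CFA, Atp2a3 measured 9.22, 7.07, 5.30 and 4.55 CPM with the flox label and 6.73, 6.97, 5.82 and 7.14 CPM with the cKO label. All con/ko libraries lay above all LDRG and CFA libraries, by the smallest margin at 9.23 CPM in con/ko against 9.22 CPM in CFA. Atp2a3 was higher in con/ko than LDRG ganglia by 1.40 (log2, SE 0.35, adjusted p = 0.00653) and lower in CFA than con/ko ganglia by -1.34 (SE 0.31, adjusted p = 0.00273). Without cKO con/ko replicate 7, the library at 38.0 CPM, the values were 1.02 and -0.97, both still called. In the Xist-matched fit CFA minus con/ko was -0.77 (adjusted p = 0.00366), and with L-coded con/ko libraries only it was -2.01 (adjusted p = 1.32e-04). The L-coded con/ko libraries held 13.4, 25.3 and 38.0 CPM, and the C-coded ones 9.23 to 11.6 CPM. In that same cKO replicate 7, summed platelet markers reached 40.6 CPM, neutrophil markers 1240 CPM and macrophage markers 140 CPM, the highest of all libraries for each. Their part in the Atp2a3 level was not tested. Pln went the other way: it was lower in con/ko than LDRG ganglia by -1.12 (SE 0.28, adjusted p = 0.00573) and higher in CFA than con/ko ganglia by 1.05 (SE 0.35, adjusted p = 0.0243), the latter not called without flox con/ko replicate 4 or CFA flox replicate 2 (adjusted p of 0.0579 to 0.0619). That call also ended in the Xist-matched fit (1.14, adjusted p = 0.0659) and with L-coded con/ko libraries only (adjusted p = 0.0847).

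Among release channels, Itpr2, the inositol trisphosphate receptor with the highest affinity for its ligand, had the lowest level per kilobase of all members. Itpr2 measured 4.26, 3.41 and 5.37 CPM in flox and 5.64, 3.42 and 4.11 CPM in cKO LDRG libraries. Itpr2 in con/ko ganglia measured 8.94, 8.98 and 9.79 CPM in flox and 8.31, 8.36, 8.72 and 8.56 CPM in cKO libraries. Under CFA, Itpr2 measured 10.5, 8.22, 5.94 and 6.20 CPM with the flox label and 6.58, 6.78, 6.43 and 8.33 CPM with the cKO label. All CFA libraries and all con/ko libraries lay above all LDRG libraries. The log2 difference CFA minus LDRG was 0.83 in flox (SE 0.23, adjusted p = 0.0469) and 0.68 in cKO (SE 0.23, adjusted p = 0.120), and 0.75 averaged (SE 0.16, adjusted p = 0.00745). Whether the genotypes differed in this was tested by the interaction, at -0.15 (SE 0.32, adjusted p = 0.987). Con/ko exceeded LDRG ganglia by 1.04 (SE 0.13, adjusted p = 6.20e-05), and CFA minus con/ko was -0.27 (SE 0.12, adjusted p = 0.0720). The call in flox ended without any of 8 libraries (flox LDRG 1 and 2, cKO LDRG 3, CFA flox 1 and 2, CFA cKO 1, 2 and 3, adjusted p of 0.0576 to 0.188) and with sex as a term (0.91, adjusted p = 0.0563), while the averaged call held in all 14 fits without 1 library.

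Itpr3, the most abundant release channel per kilobase here, was the other receptor of this family that differed between sets. Itpr3 measured 66.6, 74.3 and 85.4 CPM in flox and 80.5, 73.4 and 83.5 CPM in cKO LDRG libraries. Itpr3 in con/ko ganglia measured 126, 98.3 and 114 CPM in flox and 116, 102, 108 and 86.1 CPM in cKO libraries. Under CFA, Itpr3 measured 99.2, 91.0, 84.9 and 79.8 CPM with the flox label and 89.4, 98.0, 89.5 and 79.2 CPM with the cKO label. The con/ko libraries were all above the LDRG libraries, and CFA libraries lay between and overlapped both. Itpr3 was higher in con/ko than LDRG ganglia by 0.50 (log2, SE 0.09, adjusted p = 5.97e-04) and lower in CFA than con/ko ganglia by -0.28 (SE 0.08, adjusted p = 0.00788). With L-coded con/ko libraries only, the second call ended, at -0.08 (adjusted p = 0.501), and the first was 0.31 (adjusted p = 0.0249). Itpr1, the main receptor of central neurons, was not called in any comparison, at 22.5 to 32.8 CPM over all libraries.

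Ryr2, the ryanodine receptor shared by heart and neurons, moved opposite to Itpr3 in both comparisons. Ryr2 measured 98.2, 82.2 and 86.8 CPM in flox and 107, 97.3 and 104 CPM in cKO LDRG libraries. Ryr2 in con/ko ganglia measured 56.3, 68.6 and 71.5 CPM in flox and 72.8, 44.0, 74.6 and 75.6 CPM in cKO libraries. Under CFA, Ryr2 measured 115, 123, 89.4 and 107 CPM with the flox label and 92.7, 115, 102 and 120 CPM with the cKO label. All LDRG and CFA libraries lay above all con/ko libraries, of which cKO replicate 5 was the lowest. Ryr2 was lower in con/ko than LDRG ganglia by -0.51 (log2, SE 0.12, adjusted p = 0.00389) and higher in CFA than con/ko ganglia by 0.71 (SE 0.12, adjusted p = 2.72e-04). Within the LDRG set, cKO minus flox was 0.20 (SE 0.07), the highest of the 31 members there, with an adjusted p of 0.991. Ryr3, found in brain at lower levels, had a log2 difference of -0.42 in con/ko against LDRG ganglia (SE 0.11, adjusted p = 0.0106) and 0.46 in CFA against con/ko ganglia (SE 0.12, adjusted p = 0.00503). Ryr3 exons overlap those of Aven on the opposite strand.

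The counter-ion channels let potassium move so that calcium release does not charge the membrane. Tmem38a measured 70.1, 69.9 and 72.9 CPM in flox and 77.8, 68.0 and 76.7 CPM in cKO LDRG libraries. Tmem38a in con/ko ganglia measured 77.3, 75.6 and 79.0 CPM in flox and 71.1, 65.6, 73.3 and 72.6 CPM in cKO libraries. Under CFA, Tmem38a measured 64.2, 65.2, 70.1 and 71.1 CPM with the flox label and 69.2, 65.5, 66.8 and 64.3 CPM with the cKO label. The sets overlapped, and no library stood apart. Tmem38a was lower in CFA than con/ko ganglia by -0.14 (log2, SE 0.04, adjusted p = 0.00531), and CFA minus LDRG was not called. The call against con/ko ended in the Xist-matched fit (-0.11, adjusted p = 0.0789) and with L-coded con/ko libraries only (-0.13, adjusted p = 0.0588). Its relative Tmem38b was scarcer. Tmem38b measured 11.3, 12.1 and 10.7 CPM in flox and 10.2, 9.19 and 10.2 CPM in cKO LDRG libraries. Tmem38b in con/ko ganglia measured 11.4, 11.6 and 11.9 CPM in flox and 9.75, 12.7, 11.0 and 12.6 CPM in cKO libraries. Under CFA, Tmem38b measured 8.33, 9.16, 9.65 and 9.29 CPM with the flox label and 10.7, 7.89, 9.43 and 8.50 CPM with the cKO label. CFA libraries were mostly the lowest, but their range overlapped the LDRG and con/ko libraries. Tmem38b was lower in CFA than con/ko ganglia by -0.34 (log2, SE 0.08, adjusted p = 0.00211), and its averaged CFA minus LDRG difference was -0.22 (SE 0.07, adjusted p = 0.0541).

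In store-operated entry, Saraf encodes the reticulum protein that switches STIM1 off once stores are full. Saraf measured 216, 208 and 213 CPM in flox and 209, 197 and 214 CPM in cKO LDRG libraries. Saraf in con/ko ganglia measured 202, 203 and 202 CPM in flox and 207, 246, 211 and 200 CPM in cKO libraries. Under CFA, Saraf measured 171, 183, 192 and 180 CPM with the flox label and 187, 176, 192 and 179 CPM with the cKO label. All CFA libraries were below all LDRG and con/ko libraries. The CFA minus LDRG difference was -0.23 in flox (log2, SE 0.05, adjusted p = 0.0119) and -0.17 in cKO (SE 0.05, adjusted p = 0.0677), with an interaction of 0.06 (SE 0.07, adjusted p = 0.978). Averaged it was -0.20 (SE 0.03, adjusted p = 0.00180), and CFA minus con/ko was also -0.20 (SE 0.04, adjusted p = 0.00196); both share the CFA libraries. With sex as a term the averaged value was -0.29 (SE 0.07, adjusted p = 0.0170). Without flox LDRG replicate 1 the call in flox ended, at an adjusted p of 0.0519, and the call against con/ko ended with L-coded con/ko libraries only (-0.12, adjusted p = 0.0882).

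Stim2 senses small drops in lumenal calcium. Stim2 measured 50.3, 55.1 and 54.1 CPM in flox and 55.3, 55.4 and 53.0 CPM in cKO LDRG libraries. Stim2 in con/ko ganglia measured 45.5, 43.6 and 41.5 CPM in flox and 42.6, 46.6, 42.5 and 43.7 CPM in cKO libraries. Under CFA, Stim2 measured 46.3, 50.9, 50.9 and 50.0 CPM with the flox label and 52.4, 52.7, 52.5 and 57.3 CPM with the cKO label. Every LDRG library was above every con/ko library, and CFA libraries reached down to the con/ko range. Stim2 was lower in con/ko than LDRG ganglia by -0.28 (log2, SE 0.04, adjusted p = 1.66e-04) and higher in CFA than con/ko ganglia by 0.24 (SE 0.04, adjusted p = 3.04e-04). Stim1 was not called in any comparison.

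Orai1 forms the classic store-operated pore. Orai1 measured 8.10, 7.31 and 6.62 CPM in flox and 7.84, 7.52 and 7.65 CPM in cKO LDRG libraries. Orai1 in con/ko ganglia measured 11.3, 9.23 and 10.7 CPM in flox and 9.43, 10.7, 10.3 and 10.8 CPM in cKO libraries. Under CFA, Orai1 measured 4.79, 7.01, 10.3 and 6.64 CPM with the flox label and 8.80, 7.31, 7.35 and 6.94 CPM with the cKO label. The con/ko libraries lay above all LDRG libraries, and among CFA libraries flox replicate 3 reached the con/ko range while flox replicate 1 was the lowest of all 21. Orai1 was higher in con/ko than LDRG ganglia by 0.48 (log2, SE 0.07, adjusted p = 2.73e-04) and lower in CFA than con/ko ganglia by -0.49 (SE 0.13, adjusted p = 0.00557), the latter not called with L-coded con/ko libraries only (-0.47, adjusted p = 0.0837). Orai3, a pore that can mix with Orai1, moved the same way. Orai3 measured 17.2, 15.1 and 17.2 CPM in flox and 15.4, 16.5 and 16.5 CPM in cKO LDRG libraries. Orai3 in con/ko ganglia measured 19.3, 19.3 and 18.6 CPM in flox and 19.7, 22.5, 18.5 and 18.2 CPM in cKO libraries. Under CFA, Orai3 measured 12.4, 15.1, 17.4 and 16.1 CPM with the flox label and 13.1, 13.6, 15.8 and 13.4 CPM with the cKO label. All con/ko libraries lay above all LDRG and CFA libraries. The differences were 0.27 for con/ko minus LDRG (SE 0.06, adjusted p = 0.00374) and -0.41 for CFA minus con/ko (SE 0.07, adjusted p = 4.94e-04). The first call ended in the Xist-matched fit (0.18, adjusted p = 0.0661) and with L-coded con/ko libraries only (0.19, adjusted p = 0.0539).

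Orai2, the ORAI form abundant in brain, had the other sign. It was lower in con/ko than LDRG ganglia by -0.24 (log2, SE 0.06, adjusted p = 0.00477) and higher in CFA than con/ko ganglia by 0.13 (SE 0.04, adjusted p = 0.0256). The latter call ended without flox con/ko replicate 4 or CFA cKO replicate 2 (adjusted p of 0.0501 to 0.0554) and with L-coded con/ko libraries only (0.09, adjusted p = 0.142). Its averaged CFA minus LDRG difference of -0.13 (SE 0.04, adjusted p = 0.0468) was lost in 12 of 14 fits without 1 library, all but those without cKO LDRG replicate 2 or flox LDRG replicate 3, and with sex as a term it was -0.01 (adjusted p = 0.970).

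Of the lumenal proteins, Canx encodes calnexin, the membrane-bound chaperone that holds new glycoproteins. Canx measured 621, 631 and 627 CPM in flox and 563, 608 and 599 CPM in cKO LDRG libraries. Canx in con/ko ganglia measured 523, 558 and 523 CPM in flox and 514, 579, 513 and 538 CPM in cKO libraries. Under CFA, Canx measured 647, 646, 612 and 666 CPM with the flox label and 653, 691, 660 and 699 CPM with the cKO label. Every CFA library lay above every con/ko library, and LDRG libraries overlapped both. In cKO the CFA minus LDRG difference was 0.20 (log2, SE 0.04, adjusted p = 0.0363), in flox it was 0.04 (SE 0.04, adjusted p = 0.677), and the interaction was 0.16 (SE 0.06, adjusted p = 0.942). The call in cKO ended without each of the 9 libraries named above, at adjusted p of 0.0504 to 0.174, and with sex as a term (0.14, adjusted p = 0.243). Averaged over genotypes Canx was higher by 0.12 (SE 0.03, adjusted p = 0.0238), not called without cKO LDRG replicates 1 or 3 or flox LDRG replicate 1, nor with sex as a term (0.06, adjusted p = 0.525). Against con/ko ganglia the CFA difference was 0.30 (SE 0.04, adjusted p = 3.92e-05), the smallest adjusted p of any member.

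Canx and its soluble relative Calr, calreticulin, were the members whose promoter held an endoplasmic reticulum stress element, the motif through which unfolded proteins in the lumen are known to raise chaperone genes. RefSeq promoters (GRCm38.p6, 250 bases before to 50 after the start) were matched for 25 of the 31 members, and Atp2a2, Itpr1, Ryr3, Saraf, Tmem38b and Tmbim6 had no entry. The element was searched on both strands as CCAAT and CCACG with 9 bases of any kind between them, and 39 of 32851 promoters, or 0.119%, held it. A second form, ATTGG and CCACG with 1 base between them (0.0365% of promoters), and the cyclic AMP element TGACGTCA (1.79%) were in none of the matched members. The 250 bases before the start are shown for Canx and Calr, and for Hspa5, the classic target of this pathway, so that the element can be compared; capitals mark the match. In Calr it reads on the reverse strand. The match begins 145 bases before the start in Canx, 162 in Calr and 65 in Hspa5.
Canx, chr11:50325674-50325923, minus strand: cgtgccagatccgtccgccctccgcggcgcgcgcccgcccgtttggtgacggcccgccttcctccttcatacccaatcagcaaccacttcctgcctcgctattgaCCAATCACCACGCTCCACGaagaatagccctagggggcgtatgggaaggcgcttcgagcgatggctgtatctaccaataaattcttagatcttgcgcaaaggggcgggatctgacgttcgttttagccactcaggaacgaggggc
Calr, chr8:84846932-84847181, minus strand: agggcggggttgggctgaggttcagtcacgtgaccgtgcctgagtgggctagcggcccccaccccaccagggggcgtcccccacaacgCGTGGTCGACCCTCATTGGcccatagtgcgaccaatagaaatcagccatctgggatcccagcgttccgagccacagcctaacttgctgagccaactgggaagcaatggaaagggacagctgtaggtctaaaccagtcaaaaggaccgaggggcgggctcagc
Hspa5, chr2:34771840-34772089, plus strand: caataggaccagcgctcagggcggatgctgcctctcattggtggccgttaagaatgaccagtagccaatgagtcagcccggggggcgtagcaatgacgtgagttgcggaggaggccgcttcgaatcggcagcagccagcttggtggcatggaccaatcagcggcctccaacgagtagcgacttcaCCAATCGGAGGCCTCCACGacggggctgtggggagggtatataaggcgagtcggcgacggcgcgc

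Calr itself was not called between CFA and LDRG ganglia, with an averaged log2 difference of -0.02 (SE 0.04, adjusted p = 0.751), and lay at 289 to 323 CPM in LDRG and 274 to 326 CPM in CFA libraries. Its calls of 0.12 in con/ko against LDRG (adjusted p = 0.0297) and -0.12 in CFA against con/ko (adjusted p = 0.0291) were lost in 8 of 13 and 7 of 15 fits without 1 library. For the first these were cKO LDRG replicates 1, 2 and 3, flox LDRG replicates 1 and 2, flox con/ko replicates 4 and 5 and cKO con/ko replicate 4 (adjusted p of 0.0539 to 0.122). For the second they were con/ko replicates 4 and 5 of either genotype, CFA flox replicates 1 and 4 and CFA cKO replicate 4 (adjusted p of 0.0515 to 0.0964). The first was 0.03 in the Xist-matched fit (adjusted p = 0.534) and 0.05 with L-coded con/ko libraries only (adjusted p = 0.340), where the second was -0.05 (adjusted p = 0.604). Hspa5, the lumenal Hsp70 chaperone and not a member, measured 345 to 360 CPM in flox and 328 to 339 CPM in cKO LDRG libraries, against 368 to 390 CPM and 373 to 414 CPM in CFA libraries labelled flox and cKO. The Hspa5 CFA minus LDRG difference was 0.25 in cKO (log2, SE 0.04, adjusted p = 0.0138) and 0.17 averaged (SE 0.03, adjusted p = 0.00297). Its values without single libraries or with sex as a term are not given here. Hsp90b1 and Pdia6, also not members, held the element too. Pdia4, another lumenal gene looked up, gave no match, and whether its promoter had an entry is not given. Its levels overlapped, at 52.3 to 60.6 CPM in LDRG and 54.2 to 66.0 CPM in CFA libraries. Hsp90b1 lay at 429 to 445 CPM in LDRG and 464 to 569 CPM in CFA libraries. Pdia6 overlapped, at 95.9 to 107 CPM and 95.8 to 116 CPM. Untreated con/ko libraries held 299 to 406 CPM of Hspa5, 414 to 520 CPM of Hsp90b1 and 124 to 171 CPM of Pdia6. For Hspa5 and Hsp90b1 the con/ko range overlapped both LDRG and CFA libraries, and for Pdia6 it lay above all of them. Whether the element bears on these levels was not tested.

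Pdia3, the disulfide isomerase that works with calnexin and calreticulin, was the most abundant lumenal member per kilobase. Pdia3 measured 435, 435 and 428 CPM in flox and 425, 428 and 416 CPM in cKO LDRG libraries. Pdia3 in con/ko ganglia measured 415, 417 and 393 CPM in flox and 383, 464, 379 and 397 CPM in cKO libraries. Under CFA, Pdia3 measured 417, 424, 429 and 429 CPM with the flox label and 415, 418, 431 and 526 CPM with the cKO label. All sets overlapped, and 1 CFA library labelled cKO stood above the rest at 526 CPM. With all libraries Pdia3 was not called between sets, but in the Xist-matched fit it was lower in con/ko than LDRG ganglia by -0.13 (adjusted p = 0.0125). Calu (calumenin), Erp44 and Rcn2 were higher in CFA than con/ko ganglia, by 0.17, 0.16 and 0.14 (log2, adjusted p = 0.00315, 0.0156 and 0.0283), the last lost without flox con/ko replicate 6, CFA flox replicate 1 or CFA cKO replicates 2 or 4. In the Xist-matched fit Erp44 was at 0.15 and Rcn2 at 0.09, neither called (adjusted p = 0.0554 and 0.191), and with L-coded con/ko libraries only Rcn2 was at 0.23 (adjusted p = 0.00717). Con/ko minus LDRG was not called for Rcn2 or Calu with all libraries; Rcn2 was lower by -0.16 in the Xist-matched fit and with L-coded libraries only (adjusted p = 0.0358 and 0.0439), and Calu by -0.12 in the latter (adjusted p = 0.0131). The averaged CFA minus LDRG difference of Calu, 0.09 (SE 0.03, adjusted p = 0.0448), was lost in 11 of 14 fits without 1 library, all but those without CFA cKO replicate 2 or CFA flox replicates 3 or 4 (adjusted p of 0.0514 to 0.0918), and with sex as a term (0.07, adjusted p = 0.484). Sdf4 was not called in any comparison, at 330 to 375 CPM in 19 libraries and 188 and 220 CPM in CFA cKO replicate 4 and con/ko cKO replicate 4.

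The junctophilins tie the reticulum to the plasma membrane. Jph3 measured 151, 137 and 135 CPM in flox and 153, 144 and 146 CPM in cKO LDRG libraries. Jph3 in con/ko ganglia measured 121, 110 and 90.7 CPM in flox and 135, 108, 136 and 114 CPM in cKO libraries. Under CFA, Jph3 measured 132, 160, 139 and 147 CPM with the flox label and 140, 154, 149 and 146 CPM with the cKO label. The LDRG and CFA libraries lay mostly above the con/ko libraries, of which flox replicate 6 was the lowest. Jph3 was lower in con/ko than LDRG ganglia by -0.31 (log2, SE 0.08, adjusted p = 0.00580) and higher in CFA than con/ko ganglia by 0.34 (SE 0.07, adjusted p = 0.00119). Jph4 measured 157 to 173 CPM in LDRG, 124 to 165 CPM in con/ko and 129 to 153 CPM in CFA libraries. All CFA libraries lay below all LDRG libraries for Jph4. Its CFA minus LDRG difference was -0.22 in flox (SE 0.06, adjusted p = 0.0352), -0.12 in cKO (SE 0.06, adjusted p = 0.244) and -0.17 averaged (SE 0.04, adjusted p = 0.0122), and -0.13 with sex as a term (adjusted p = 0.399). The call in flox ended without flox LDRG replicates 1, 2 or 3 or CFA cKO replicate 3 (adjusted p of 0.0509 to 0.0969) and with sex as a term (-0.18, adjusted p = 0.336). Con/ko minus LDRG was -0.18 for Jph4 (adjusted p = 0.0280), lost without cKO LDRG replicate 1, flox LDRG replicate 3 or flox con/ko replicate 6.

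Leak proteins let calcium seep out at rest. Tmbim6, also a suppressor of stress-driven cell death, was the more abundant. Tmbim6 measured 193, 198 and 186 CPM in flox and 183, 203 and 198 CPM in cKO LDRG libraries. Tmbim6 in con/ko ganglia measured 255, 222 and 223 CPM in flox and 226, 287, 228 and 236 CPM in cKO libraries. Under CFA, Tmbim6 measured 172, 181, 205 and 182 CPM with the flox label and 198, 184, 203 and 177 CPM with the cKO label. All con/ko libraries lay above all LDRG and CFA libraries. Tmbim6 was higher in con/ko than LDRG ganglia by 0.32 (log2, SE 0.06, adjusted p = 0.00141) and lower in CFA than con/ko ganglia by -0.35 (SE 0.06, adjusted p = 3.38e-04). Tmco1, a channel that opens when the store is overfull, measured 46.4 to 66.9 CPM, and its con/ko minus LDRG difference of 0.17 (adjusted p = 0.0445) was lost in 10 of 13 fits without 1 library, all but those without cKO con/ko replicates 4, 5 or 7 (adjusted p of 0.0584 to 0.138). It was also lost in the Xist-matched fit (0.08, adjusted p = 0.331) and with L-coded con/ko libraries only (0.05, adjusted p = 0.502).

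At the contacts with mitochondria, Vdac1 passes calcium through the outer membrane. Vdac1 measured 465, 446 and 458 CPM in flox and 449, 455 and 452 CPM in cKO LDRG libraries. Vdac1 in con/ko ganglia measured 409, 415 and 364 CPM in flox and 433, 439, 413 and 407 CPM in cKO libraries. Under CFA, Vdac1 measured 372, 428, 428 and 420 CPM with the flox label and 441, 402, 419 and 398 CPM with the cKO label. Every LDRG library was above every con/ko and every CFA library, and CFA flox replicate 1 and con/ko flox replicate 6 were the lowest. The averaged CFA minus LDRG difference was -0.14 (log2, SE 0.04, adjusted p = 0.0234) and -0.26 with sex as a term (adjusted p = 0.0143). It was not called without cKO LDRG replicates 2 or 3 or flox LDRG replicates 1 or 3 (adjusted p of 0.0503 to 0.0591). Con/ko minus LDRG was -0.13 (SE 0.04, adjusted p = 0.0119), and -0.23 in the Xist-matched fit (adjusted p = 8.61e-04). With sex as a term Vdac1 was also called in flox for CFA minus LDRG, at -0.27 (adjusted p = 0.0290), against -0.15 without it (adjusted p = 0.105).

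Bcl2, which binds inositol trisphosphate receptors besides blocking cell death, differed between CFA and con/ko ganglia. Bcl2 measured 92.9, 85.0 and 84.5 CPM in flox and 84.1, 86.1 and 85.2 CPM in cKO LDRG libraries. Bcl2 in con/ko ganglia measured 77.5, 70.4 and 77.1 CPM in flox and 92.4, 84.3, 82.9 and 82.5 CPM in cKO libraries. Under CFA, Bcl2 measured 99.8, 94.7, 86.9 and 92.6 CPM with the flox label and 92.3, 100, 96.9 and 116 CPM with the cKO label. The CFA libraries were mostly above the others, but their range overlapped both the LDRG and con/ko libraries. The genotypes overlapped in the LDRG and CFA sets. In the con/ko set every cKO library lay above every flox library, and genotype was not called there. The share of all genes that separate so is not given. Bcl2 was higher in CFA than con/ko ganglia by 0.28 (log2, SE 0.06, adjusted p = 0.00111). Its averaged CFA minus LDRG difference of 0.17 (SE 0.05, adjusted p = 0.0365) was lost in 9 of 14 fits without 1 library, all but those without CFA cKO replicates 1, 3 or 4, CFA flox replicate 3 or flox LDRG replicate 1 (adjusted p of 0.0541 to 0.0853). With sex as a term it was 0.14 (adjusted p = 0.297). Within the con/ko set Bcl2 had the smallest adjusted p of the members for genotype, 0.686, at 0.19 (SE 0.07). Con/ko minus LDRG was called for Bcl2 with L-coded con/ko libraries only (-0.15, adjusted p = 0.0429) and not with all (-0.09, adjusted p = 0.113). Mcu was not called in any comparison, at 40.1 to 55.7 CPM. The contact protein Vapb, at 276 to 350 CPM, was not called with all libraries, but it was lower in con/ko than LDRG ganglia by -0.14 both in the Xist-matched fit (adjusted p = 0.0205) and with L-coded con/ko libraries only (adjusted p = 0.0153).

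**Figure D4:**
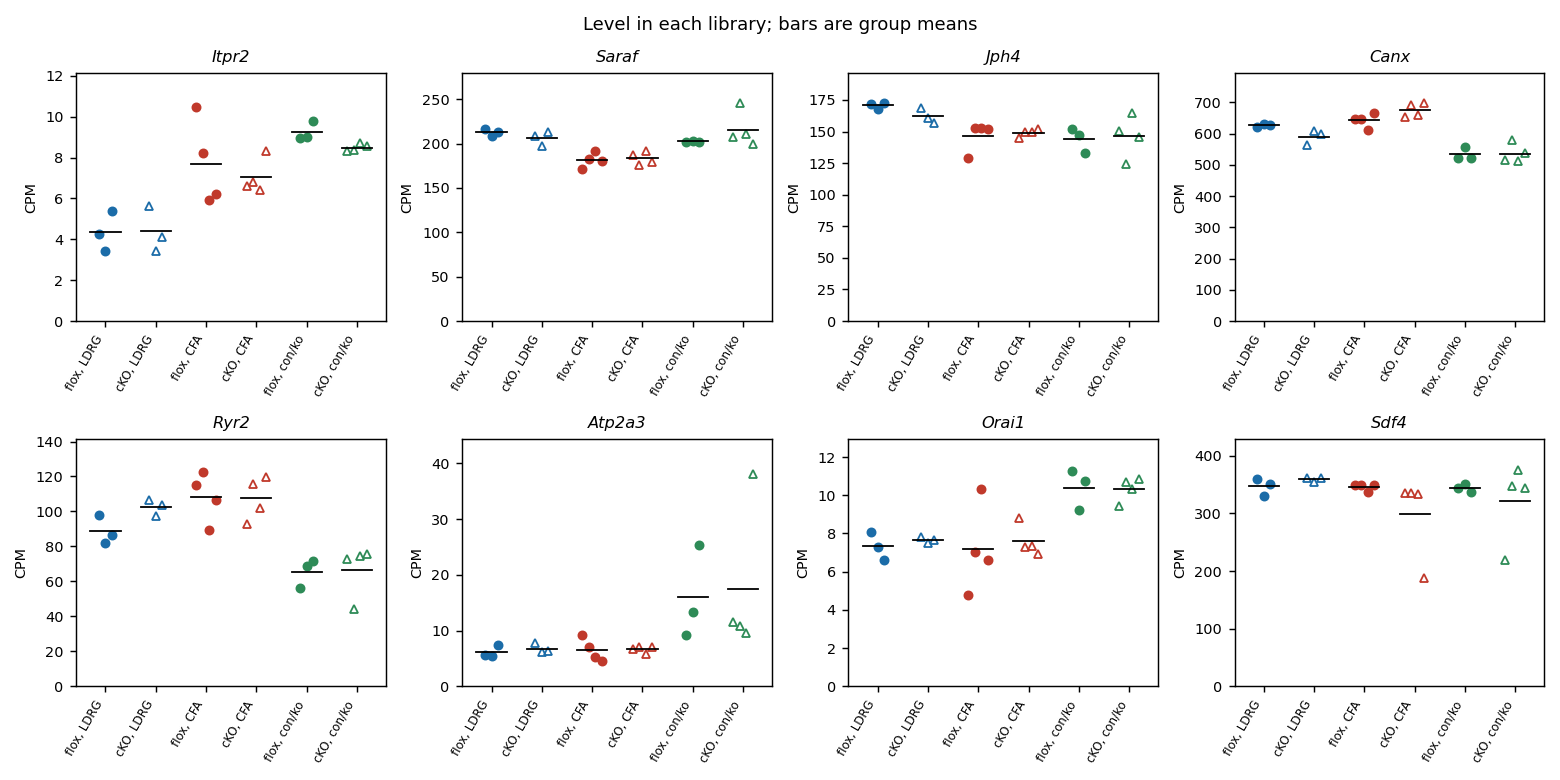
Level in CPM of Itpr2, Saraf, Jph4, Canx, Ryr2, Atp2a3, Orai1 and Sdf4 in each of the 21 libraries, as points by group with a bar at the group mean and an axis that starts at 0. Itpr2 lies at 3.41 to 5.64 CPM in LDRG and at 5.94 CPM or more in all other libraries, Saraf is at or below 192 CPM in all CFA libraries, and single libraries stand apart for Atp2a3 (38.0 CPM) and Sdf4 (188 CPM).

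A list of 83 other genes of the pathway was set beside the members, of which 81 were in both tables; the others were not analysed here. None was called by genotype in untreated ganglia, in the LDRG set or in the CFA set (80, 80 and 78 tested). In the con/ko set 4 of 80 were called, or 5%, beside 0.243% of all genes. All 4 were muscle forms and lower in cKO: the pump Atp2a1 by -6.83, Trdn by -6.66, Ryr1 by -3.33 and the calcium store protein Casq1 by -2.64 (log2, adjusted p = 0.00344, 0.0477, 0.00806 and 0.00401). In the same comparison 4 of 7 fast skeletal muscle markers were lower, and the sum of the list lay at 445 to 740 CPM in flox and 70.0 to 121 CPM in cKO libraries. Most of the cKO sum was Pvalb, a marker on that list that is also in large sensory neurons. Pvalb lay at 73.6 to 124 CPM in flox and 59.8 to 118 CPM in cKO libraries. The part of muscle in these calls was not tested. With CFA against LDRG, 2 of 80 were lower in flox (Tmem165 by -0.23 and Ccdc47 by -0.20), or 2.5%, beside 3.05% of all genes. In cKO 1 of 80 was higher (Hspa5), or 1.25%, beside 1.7% of all genes. The averaged comparison called 5 higher and 7 lower, or 15% of those tested beside 16.9% of all genes; the smallest adjusted p belonged to Hspa5, Tmem165, Selenok, Hsp90b1 and Fkbp1a, with log2 differences of 0.17, -0.19, -0.45, 0.16 and -0.30. Con/ko against LDRG called 17 higher and 20 lower, or 46.25%, beside 47% of all genes. These were led by Rcn3 (1.59), Selenot (-0.57), Smdt1 (0.71), Atp2c1 (0.38) and Fundc1 (-0.44). CFA against con/ko called 15 higher and 25 lower, or 50%, beside 49.7% of all genes. Those were led by Selenot (0.50), Rcn3 (-1.29), Fundc1 (0.48), Trpc1 (0.42) and Slc8b1 (-0.86). For the members these shares were 58.1% and 67.7%.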

How the data were processed

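Ganglion RNA was enriched for mRNA with oligo(dT) beads after TRIzol extraction and read as paired ends, per the labels' protocols. The deposited values are whole-number read counts per gene, not normalized, in tables of 14 and 7 libraries. The submitters' processing notes name fastp 0.23.2, BWA 2.2.1, SAMtools 1.14, DESeq2 1.40.2 and the build mm10; the counting program, its annotation, its use of strand and its treatment of reads with several matches are not given in the sources used here. Exons of 9 members overlap a gene on the opposite strand in GENCODE vM21, and reads of such pairs cannot be told apart if strand was not used.

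Counts were tested with edgeR 4.0.16 in R 4.3.3 (quasi-likelihood F tests, TMM, filterByExpr with a minimum count of 10 and total of 15, Benjamini-Hochberg over all genes tested, called at an adjusted p under 0.05). The LDRG, con/ko and CFA genotype comparisons were each fitted on their own libraries, the untreated one with the set as a term, and comparisons between sets as contrasts of group means. SE is the log2 difference divided by the square root of F, and 95% intervals use the fit's degrees of freedom. CPM uses TMM over all 21 libraries, and CPM per kilobase uses exon lengths of GENCODE vM21. The code was tested on simulated data. Replicate pairs were compared by chi-square, and none of 27 agreed within sampling noise (chi-square per degree of freedom of 26.1 or more). Depth limits the precision of the counts, and intervals cover the spread between libraries.

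The members and all lists were chosen with earlier results of these data known. Values in every library are printed for the 14 called members with the smallest adjusted p and for the member with the highest level per kilobase in each role; other pathway genes are named up to 5 per comparison, and others were named after their values were seen. Alternatives were DESeq2 1.42.0, RLE size factors, other filters, 1 fit of 21 libraries, sex, code letters, muscle markers or the replicate number as terms, other untreated sets, con/ko subsets and leaving out each library. The comparison of CFA with LDRG over both genotypes and the genotype by untreated set interaction were added after seeing the data.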

Additional observations from a re-analysis of the deposited data

Results flagged for a closer look

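In the groups of 4 libraries, the highest or lowest library stood far from the other 3 in 11 of 93 sets of gene and group. The rule flags about 1 in 20 sets by chance if values are normally spread and sets independent. Here the genes share libraries, with 4 flags in CFA cKO replicate 4 and 3 in CFA flox replicate 1. The share of all genes flagged is not given, so no excess over chance is shown. In CFA cKO replicate 4, Stim2 was high at 57.3 CPM (the others 52.4 to 52.7), Pdia3 was high at 526 CPM (415 to 431), Sdf4 was low at 188 CPM (335 to 336) and Mcu was low at 43.6 CPM (47.8 to 48.5). In CFA flox replicate 1, Jph4 was low at 129 CPM (152 to 153), Mcu at 40.1 CPM (52.2 to 52.7) and Vdac1 at 372 CPM (420 to 428). In CFA flox replicate 3, Sdf4 was low at 338 CPM, beside 349 to 350 CPM. In con/ko cKO replicate 5, Ryr2 was low at 44.0 CPM (72.8 to 75.6) and Erp44 was high at 44.2 CPM (38.4 to 39.4). In con/ko cKO replicate 7, Atp2a3 was high at 38.0 CPM (9.58 to 11.6).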

How the results depend on the processing

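Every alternative, each left-out library and DESeq2 gave 0 members for the 4 genotype comparisons and the interaction. The title replicate number as a replicate block also gave 0 members in each. Same-numbered libraries showed no clear shared deviation (correlations of -0.002 to 0.092 in LDRG, -0.15 to 0.24 in con/ko and -0.01 to 0.05 in CFA libraries, with 3 of 6, 1 of 7 and 2 of 8 libraries closest to their own number). With so few libraries, this cannot exclude a pairing by number. For CFA against LDRG, leaving out 1 library gave 0 to 4 members in flox, 0 to 2 in cKO and 3 to 9 averaged. In cKO, DESeq2 gave 4, and a fit of all 21 libraries and sex as a term each gave 0. With sex as a term the averaged comparison gave 3. The causes of these changes in count were not tested, beyond fewer libraries where 1 was left out. The share of all genes called is not given for any alternative, so these member counts are not set against the transcriptome. The counts between con/ko and the other sets stayed within 1.5 times of the reported ones under all alternatives, at 16 to 21 against LDRG and 14 to 22 for CFA. No reported difference of a called member changed sign. Processing alone ended some calls (flox, cKO and averaged stand for CFA minus LDRG). RLE size factors ended Calr and Tmco1 for con/ko minus LDRG. No filter beyond 1 count ended those, Itpr2 in flox, averaged Orai2, and Calr for CFA minus con/ko. A mean of at least 5 CPM ended averaged Orai2, Jph4 for con/ko minus LDRG, and Orai2 and Rcn2 for CFA minus con/ko. The fit of all 21 libraries ended Jph4 in flox, Canx in cKO, averaged Orai2 and Calu, and Calr for con/ko minus LDRG. Depth was ample for most members; Pln, Itpr2, Atp2a3 and Orai1 rest on the fewest counts, from 40, 238, 309 and 329 per library.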
